A study of Homo sapiens with 4 samples.

Results

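BEAS-2B is an established human cell line from the bronchial epithelium, and 73 of its genes were at most 0.6 times their Control level in each of the 3 libraries made from cells given LPS. These members were chosen among 10894 gene symbols without a hyphen that had at least 100 raw counts in Control, out of 24424 symbols in all. A symbol was a member when its level in each LPS library was at most 0.6 times the Control value, with the level given as CPM, the count scaled to a library total of 1000000. The ratios to Control therefore selected the members and are given here as a description, without a test. Among the same 10894 symbols, 2.14% met the limit with LPS alone, 1.72% after the WT peptide and 8.89% after the mut peptide, and 0.670% met it in all 3.

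RNA was sequenced from 4 libraries of cells with the wild-type genotype, 1 for each condition. Control cells had no treatment, LPS cells received lipopolysaccharide for 2 hr, and the other cells received a wild-type (WT PDZ+LPS) or mutant (mut PDZ+LPS) PDZ peptide for 24 hr and then LPS for 2 hr. There was no library of peptide without LPS, and all 4 share 1 cell line, so each condition stands for 1 culture without replication and no test across conditions was run. Below, the 3 LPS libraries are called LPS alone, the WT peptide and the mut peptide. The libraries held 19682929 to 25155647 counts, with the lowest total in mut PDZ+LPS. The summed level of 7 epithelial markers ran from 2875 to 4079 CPM over the 4 libraries, with KRT7, KRT8 and KRT18 as its main part. All 7 had counts in each, but EPCAM had only 37 to 51, KRT19 87 to 216 and CDH1 308 to 634. Mesenchymal markers (5) summed to 2232 to 2780 CPM, with VIM and FN1 as their main part, and 4 endothelial markers summed to 1.07 to 1.35. The 6 macrophage or leukocyte markers summed to 30.9 to 38.9 CPM, nearly all of it CD14 (362 to 507 counts) and CD68 (304 to 358 counts), and PTPRC, the pan-leukocyte marker, had 0 counts in every library. In bulk RNA, fewer cells of a kind and less RNA per cell cannot be told apart. Long transcripts had lower values in the mut PDZ+LPS library, where Spearman's rho across 10779 genes between length and mut PDZ+LPS/LPS was -0.633, a description over genes that share a library. Values that set mut PDZ+LPS against another library carry this trend, and its part in them was examined only where a value with the trend removed is given.

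Lipopolysaccharide is a component of the outer membrane of Gram-negative bacteria that is sensed through Toll-like receptor 4 and leads to NF-kB activation and to a fast rise of cytokine and chemokine transcripts. Transcripts that go down in the same hours can encode feedback inhibitors, transcription factors and regulators with short-lived messages. The PDZ peptides were built on the first PDZ domain of the tight junction protein ZO-1, a fold that binds the tails of partner proteins, and carry a sequence that lets them enter cells.

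The promoters of the members are shown first for 4 genes that return below, the leucine zipper gene TSC22D3, the sprouty gene SPRY2, the DNA demethylase gene TET1 and the clock-output factor HLF. Each window holds the RefSeq sequence from 250 bases before to 50 bases after a transcription start in GRCh38.p14, 5′ to 3′ on the strand of the gene. Capitals mark TATAAA (the letters of the TATA box), GGGGCGGG (the GC box, here also as its reverse complement) or TGACGTCA (the cyclic AMP response element). The search covered both strands and took no account of the distance from the start, so marked TATAAA letters need not be a core promoter box. SPRY2 is shown as a window with no match. Each of these genes has further windows that are not printed. For TSC22D3, TET1 and HLF the printed window is the only one of the gene with TATAAA. The windows are chrX:107717013-107717312 on the minus strand for TSC22D3, chr13:80341077-80341376 on the minus strand for SPRY2, chr10:68600018-68600317 on the plus strand for TET1 and chr17:55264710-55265009 on the plus strand for HLF.
TSC22D3: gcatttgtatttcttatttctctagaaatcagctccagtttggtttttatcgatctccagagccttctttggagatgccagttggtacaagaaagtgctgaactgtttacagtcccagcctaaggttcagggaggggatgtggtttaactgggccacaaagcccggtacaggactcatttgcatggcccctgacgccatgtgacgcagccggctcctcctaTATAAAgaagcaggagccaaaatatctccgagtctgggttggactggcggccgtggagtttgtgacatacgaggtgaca
SPRY2: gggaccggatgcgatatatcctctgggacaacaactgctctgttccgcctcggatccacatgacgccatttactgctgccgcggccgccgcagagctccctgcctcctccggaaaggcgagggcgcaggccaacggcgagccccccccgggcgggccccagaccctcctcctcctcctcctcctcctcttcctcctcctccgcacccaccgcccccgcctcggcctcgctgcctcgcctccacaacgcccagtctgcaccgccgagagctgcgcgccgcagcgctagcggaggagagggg
TET1: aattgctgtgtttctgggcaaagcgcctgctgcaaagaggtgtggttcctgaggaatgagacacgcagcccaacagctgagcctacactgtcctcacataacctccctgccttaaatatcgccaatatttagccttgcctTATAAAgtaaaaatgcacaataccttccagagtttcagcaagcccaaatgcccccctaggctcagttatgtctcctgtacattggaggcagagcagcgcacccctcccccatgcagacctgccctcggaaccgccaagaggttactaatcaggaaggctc
HLF: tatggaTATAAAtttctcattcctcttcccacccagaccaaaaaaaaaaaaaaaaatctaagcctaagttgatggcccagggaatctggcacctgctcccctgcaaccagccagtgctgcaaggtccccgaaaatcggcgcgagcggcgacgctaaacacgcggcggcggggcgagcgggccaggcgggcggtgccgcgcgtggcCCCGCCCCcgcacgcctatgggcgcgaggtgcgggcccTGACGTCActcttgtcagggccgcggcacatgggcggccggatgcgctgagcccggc

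RefSeq gave 93 windows for 56 of the 73 members, and 17 had no window in the table used. TATAAA was in 10.8% of the member windows, against 5.74% of the 13054 windows of all symbols with at least 100 counts in Control and 11.5% of all 35116 windows. CACGTG (E-box) was in 3.23% of the member windows against 9.43% of those of the same symbols. GGGGCGGG was in 35.5% against 36.4%. The kappa B letters GGGNNTTTCC were in 1.08% of member windows, a single window of PRR5L, against 2.14%, and the cyclic AMP response element was in 1.08%, the HLF window above, against 2.90%. Neither the D-box letters TTANGTAA nor the glucocorticoid response palindrome GNACANNNTGTNC was found in a member window, and they were in 1.20% and 0.253% of the windows of all symbols with at least 100 counts in Control. A match is a description of letters only, and some genes have several overlapping windows.

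The members ranged from 104 to 8178 counts in Control, with a median of 253, whereas the median of all 10894 symbols was 1079. Under 250 counts lay 49.3% of the members and 12.4% of all symbols, so many single values rest on few counts. Per kilobase of transcript, the 69 members with a length had a median level of 3.06 CPM in Control, against 12.3 for 10779 symbols. On this scale HNRNPA1P10 (342) was the highest member in Control, followed by SPRY2 (36.7), PSRC1 (31.6), TSC22D3 (18.8) and MKX (18.1), and PCDH9 (0.230) was the lowest.

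The median log2 fold change of the members in LPS/Control was -0.996. It was -1.02 for WT PDZ+LPS/Control, and for mut PDZ+LPS/Control it was -1.06. These medians follow in part from the limit of the rule, so no interval is given for them. All 73 were lower in all 3, as the rule required. The medians of all 10894 symbols were -0.13, -0.12 and -0.14 in the same order. Under median-of-ratios scaling the median of all symbols in LPS/Control was -0.00091, a shift of the whole scale against that by library totals. Of the 73, 39 met the limit under TMM, 42 under upper-quartile and 32 under median-of-ratios scaling, the last among them ADAMTS15, TSC22D3, SPRY2, SGK223, TET1, MKX and ZBTB16. The highest of the 3 ratios was at most 0.4 in 3 members, between 0.4 and 0.5 in 18, between 0.5 and 0.55 in 12 and between 0.55 and 0.6 in 40. Just inside the limit lay ZNF287, DBP and FOXA1, with highest ratios of 0.596, 0.597 and 0.598, and just outside it lay THAP9, ABCD2 and ZNF589, at 0.60001, 0.6003 and 0.601. The counting intervals below are exact binomial (Clopper-Pearson) at 95%, and they cover counting error between 2 libraries alone, as PCR copies of a molecule cannot be recognised. In 15 members the upper end of this interval stayed at or under 0.6 in all 3 libraries, among them ADAMTS15, TSC22D3, SPRY2, SGK223, TET1, MKX and ZBTB16. NUDT4P1 and HNRNPA1P10, given below with their copies, were also among the 15. The intervals use the same counts that selected the members, and all 3 share the Control count, so they are no separate evidence of a change.

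**Figure D1:**
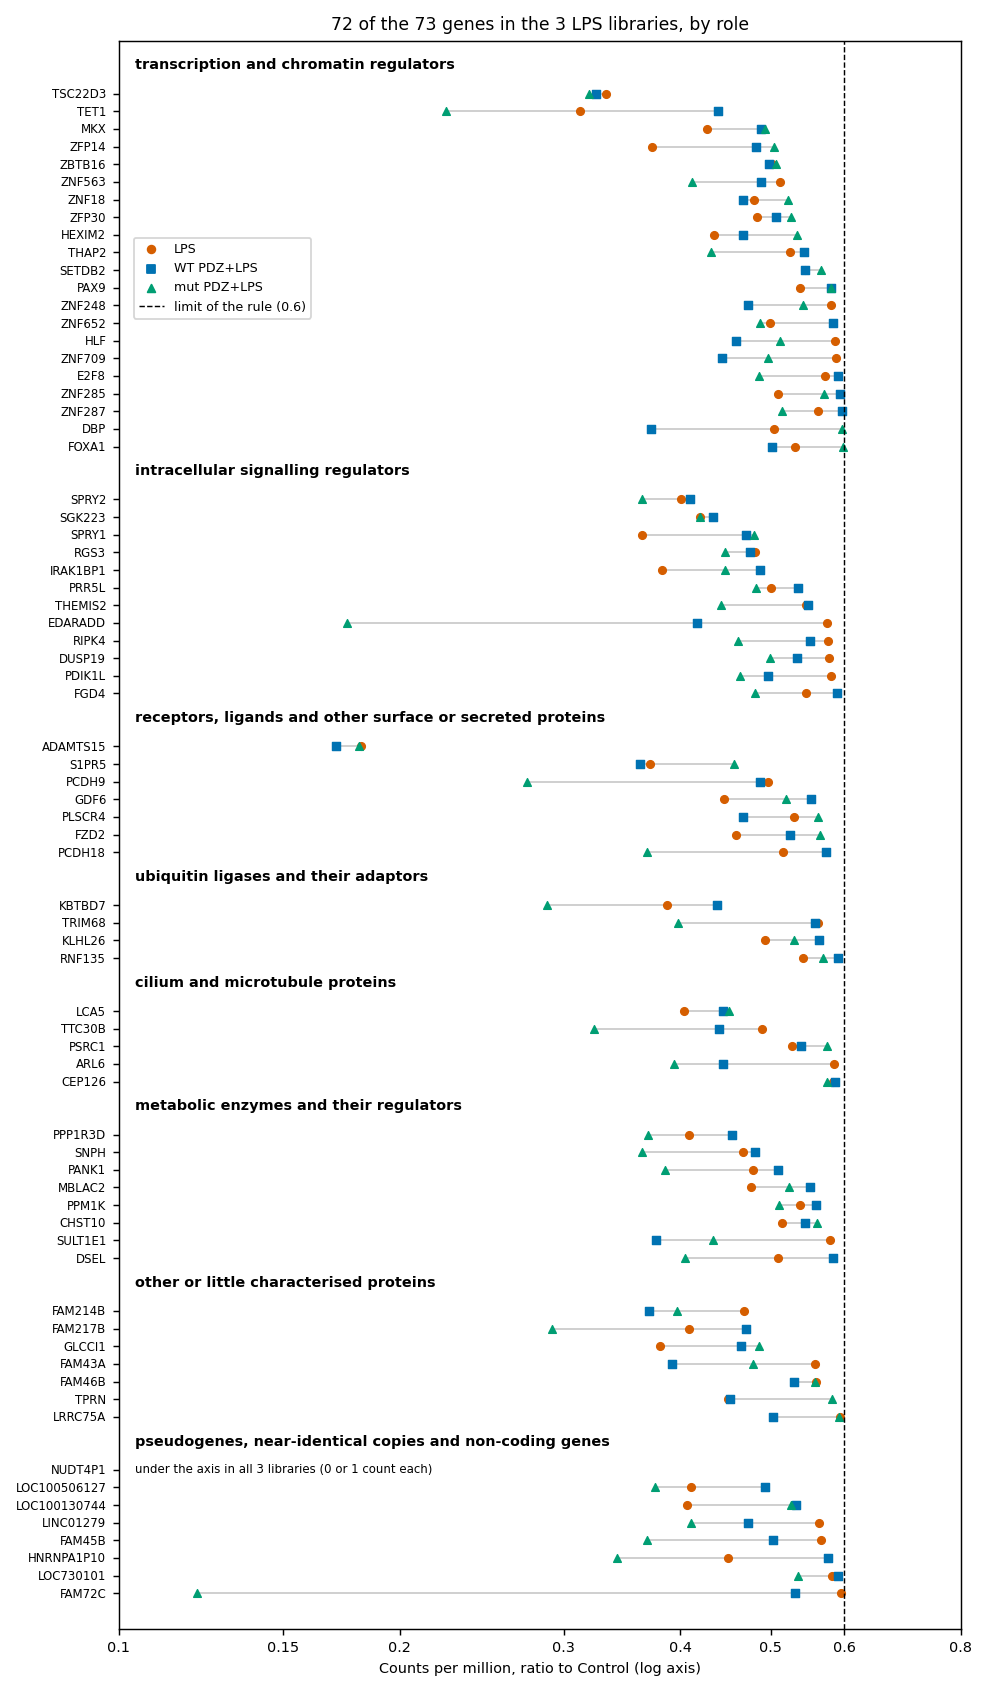
Level in CPM of 72 of the 73 members in LPS (circles), WT PDZ+LPS (squares) and mut PDZ+LPS (triangles) as a ratio to Control, on a log axis, grouped by role and ordered within a role by the highest ratio. ADAMTS15 stands at 0.171 to 0.182 in all 3 libraries, 40 members have their highest ratio between 0.55 and 0.6 at the dashed limit, and NUDT4P1 lies under the axis.

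**Figure D2:**
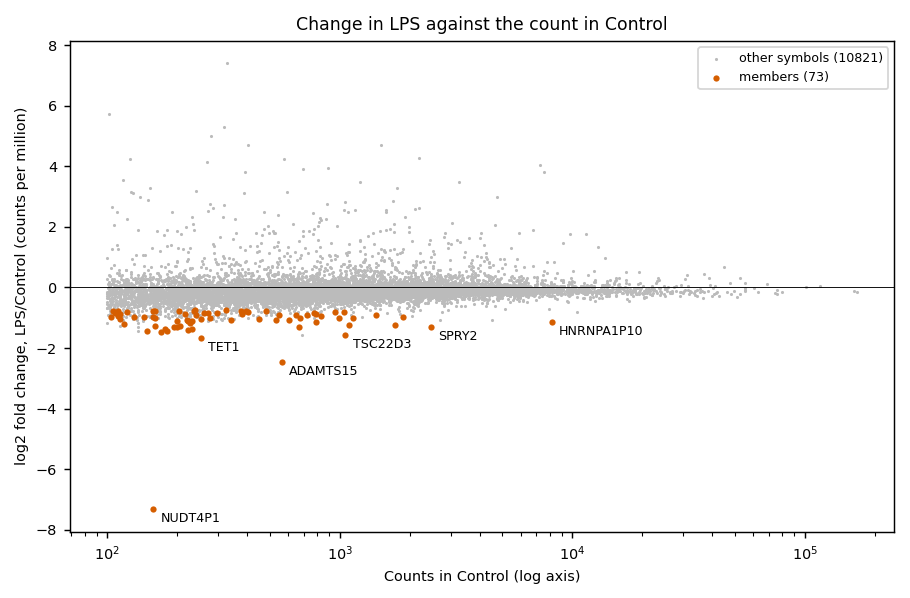
The log2 fold change in LPS/Control against the count in Control (log axis) for the 73 members (orange) and the other 10821 symbols with at least 100 counts (gray). Most members sit at low counts, with a median of 253, and NUDT4P1, ADAMTS15, TET1 and TSC22D3 are the lowest labelled points.

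Transcription and chromatin regulators were the largest group by role, with 21 members and a median of -0.97 on the log2 scale in LPS/Control. Roles were given to the members only, so the share of such regulators over all symbols is not known and the size of a group is a description. TSC22D3, the glucocorticoid-induced leucine zipper (GILZ) that restrains NF-kB and AP-1, was at 42.6 CPM in Control, 14.2 with LPS alone, 13.9 after the WT peptide and 13.6 after the mut peptide. Its 3 LPS libraries lay close together and far under Control, with log2 fold changes of -1.59 (-1.76 to -1.41), -1.62 (-1.80 to -1.44) and -1.65 (-1.85 to -1.45). ZBTB16 (PLZF), a BTB zinc finger repressor that glucocorticoids also induce, had 40.0 CPM in Control and 20.0, 19.9 and 20.3 with LPS alone, the WT peptide and the mut peptide. The 3 LPS libraries differed by less than their counting error for ZBTB16. A list of glucocorticoid-induced genes, written after the members were seen, held these genes and GLCCI1 as 3 members among 15 with at least 100 counts, so it is no independent evidence. The list as a whole was not lower, with a median of 0.14 in LPS/Control, and FKBP5 was at 1.04 times Control with LPS alone while SGK1 was at 3.17, and after the mut peptide they were at 0.736 and 2.69.

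TET1, a dioxygenase that oxidises 5-methylcytosine in DNA, had 253 counts in Control, 80 with LPS alone, 105 after the WT peptide and 45 after the mut peptide, or 10.2, 3.18, 4.48 and 2.29 CPM. All 3 LPS libraries were well under Control, and the value after the WT peptide was above both others beyond counting error. Its relatives TET2 and TET3, named after the members were seen, were at 0.753 and 1.32 times Control with LPS alone, 0.864 and 1.41 after the WT peptide, and 0.484 and 0.902 after the mut peptide. SETDB2, a histone H3 lysine methyltransferase, had 15.3 CPM in Control and 8.31, 8.32 and 8.64 with LPS alone, the WT peptide and the mut peptide. The list of chromatin enzymes had TET1 as its 1 member of 80 with enough counts, and its median in LPS/Control was -0.083.

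Developmental factors among the members were MKX, PAX9 and FOXA1. MKX (Mohawk) is a homeobox factor of tendon, PAX9 a paired-box factor of pharyngeal and tooth development, and FOXA1 a pioneer factor of airway epithelium. MKX had 1724 counts in Control, 746 with LPS alone, 795 after the WT peptide and 675 after the mut peptide, which gave 69.5, 29.7, 33.9 and 34.3 CPM. LPS alone was lowest for MKX, and both peptide libraries were above it by 0.19 (0.05 to 0.34) and 0.21 (0.06 to 0.36) on the log2 scale. FOXA1 had 29.05 CPM in Control, 15.4 with LPS alone, 14.6 after the WT peptide and 17.4 after the mut peptide, and was the member nearest to the limit. PAX9 had 22.0, 11.8, 12.8 and 12.8. FOXA1 was 1 of 43 genes of the list of homeobox and other developmental families with at least 100 counts, and the median of that list was -0.16.

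Of the clock-output PAR bZIP factors, DBP and HLF were members, at 131 and 106 counts in Control and 67 and 63 in LPS. They had 46 and 46 counts in WT PDZ+LPS, and 62 and 43 in mut PDZ+LPS, so both were lower in each LPS library, on few counts. TEF, their close relative named after the members were seen, was at 1.04 times Control with LPS alone, 1.06 after the WT peptide and 0.822 after the mut peptide. The list of circadian genes and PAR bZIP factors had these 2 members of 18 and a median of -0.050 in LPS/Control. E2F8, an atypical E2F that represses S-phase genes, had 38.5 CPM in Control, 22.0 with LPS alone, 22.7 after the WT peptide and 18.7 after the mut peptide, and was the 1 member of 54 S phase genes. No gene of 56 mitosis genes was a member, although the median of that list was -0.30. Other members with roles in transcription were HEXIM2, an inhibitor of the elongation factor P-TEFb, and THAP2, with a DNA-binding THAP domain.

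The zinc finger protein family gave 9 members, ZFP14, ZFP30, ZNF18, ZNF248, ZNF285, ZNF287, ZNF563, ZNF652 and ZNF709, most of them of the type that represses transcription through a KRAB domain. They were 2.10% of the 428 family symbols with at least 100 counts in Control, beside 0.670% over all symbols. Low counts were more frequent among members, with 49.3% under 250 in Control against 12.4% of all symbols. ZFP14, ZNF18, ZNF285, ZNF563 and ZNF709 had 104 to 220. No share at like counts was taken, so the family share and that of all symbols cannot be compared directly. ZNF652 had 45.7 CPM in Control and 22.9, 26.7 and 22.3 with LPS alone, the WT peptide and the mut peptide. ZNF248 had 19.5, 11.3, 9.21 and 10.6 in the same order, and ZFP30 had 18.1, 8.75, 9.17 and 9.50. All 9 had Control levels of 4.19 to 45.7 CPM. The whole family had a median of -0.30 in LPS/Control, with 373 of 428 genes lower, against -0.13 over all symbols. Its median lay -0.17 from that of all symbols, a distance that scaling cannot change, and 315 of 428 genes lay under the median of all symbols.

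Intracellular signalling regulators made up 13 members. SPRY2 and SPRY1 are sprouty proteins, feedback inhibitors of signalling from receptor tyrosine kinases to ERK. SPRY2 had 2470 counts in Control, 1002 with LPS alone, 955 after the WT peptide and 713 after the mut peptide, or 99.5, 39.8, 40.7 and 36.2 CPM. The 3 LPS libraries were within 0.17 of each other on the log2 scale, and LPS/Control was -1.32 (-1.43 to -1.21). SPRY1 had 6.89 CPM in Control, 2.50 with LPS alone, 3.24 after the WT peptide and 3.30 after the mut peptide, on 63 to 171 counts. Of their relatives, named after the members were seen, SPRY4 and SPRED2 were at 1.76 and 1.46 times Control with LPS alone, 1.56 and 1.40 after the WT peptide, and 1.56 and 1.36 after the mut peptide. SPRED1 was at 0.999 times with LPS alone, 1.04 after the WT peptide and 0.676 after the mut peptide. The list of immediate early and AP-1 genes, in which both sproutys stand, had a median of 0.40 in LPS/Control, with 9 of 27 genes lower.

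SGK223, a pseudokinase scaffold now named PRAG1, had 44.0 CPM in Control and 18.5, 19.1 and 18.5 with LPS alone, the WT peptide and the mut peptide, an even level over the 3. RIPK4, a kinase of epidermal differentiation, had 42.1, 24.2, 23.2 and 19.4 CPM in the 4 libraries. RGS3, which speeds GTP hydrolysis by G-protein subunits, had 10.2, 4.93, 4.86 and 4.57. FGD4, an exchange factor for Cdc42, had 31.8 CPM in Control and 15.3 to 18.7 in the LPS libraries, and PRR5L, which binds mTOR complex 2, had 27.2 and 13.1 to 14.5. DUSP19, a dual-specificity phosphatase, PDIK1L, a kinase, THEMIS2 and IRAK1BP1 had 111 to 394 counts in Control. EDARADD, the adaptor of the ectodysplasin receptor, had 122 counts in Control, 71 with LPS alone, 48 after the WT peptide and 17 after the mut peptide, and stood apart by its low value with the mutant peptide.

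Among receptors, ligands and other surface or secreted proteins (7 members), ADAMTS15 showed the lowest ratios of any member except NUDT4P1 with LPS alone and after the WT peptide. This secreted metalloprotease, which cleaves the proteoglycans versican and aggrecan, had 564 counts in Control, 104 with LPS alone, 91 after the WT peptide and 81 after the mut peptide. In CPM these were 22.7, 4.13, 3.88 and 4.12, so that Control stood 5.50 to 5.85 times above the other 3, which did not differ beyond counting error. The log2 fold change in LPS/Control was -2.46 (-2.77 to -2.15). It was the 1 member of 12 ADAM and ADAMTS genes with at least 100 counts, whose median was -0.052.

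S1PR5, a receptor for sphingosine 1-phosphate, had 149 counts in Control, 56 with LPS alone, 51 after the WT peptide and 54 after the mut peptide. FZD2, a Wnt receptor, had 232, 108, 115 and 104 counts in the same order, and was 1 of 22 genes of the Wnt list. GDF6, a ligand of the bone morphogenetic protein family, had 228, 103, 119 and 94, and for these 3 genes the LPS libraries did not differ beyond counting error once divided by the totals. The protocadherins PCDH9 and PCDH18, homophilic adhesion molecules, had 161 and 832 counts in Control and 81 and 435 in LPS. In mut PDZ+LPS they had 35 and 243 counts, the lowest of their 4 values. PLSCR4, of the phospholipid scramblase family, had 9.67 CPM in Control and 4.52 to 5.44 in the others.

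Ubiquitin ligases and their adaptors were KBTBD7 and KLHL26, kelch proteins that pair with cullin-3, and the ring finger proteins TRIM68 and RNF135. KBTBD7 had 9.35 CPM in Control, 3.62 with LPS alone, 4.09 after the WT peptide and 2.69 after the mut peptide. The other 3 had between 8.66 and 11.1 CPM in Control and between 4.17 and 6.27 in the LPS libraries. The TRIM, F-box and kelch-like, and ring finger lists had 1 member each of 38, 71 and 58 genes.

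Cilium and microtubule proteins were LCA5 (lebercilin), TTC30B, ARL6 and CEP126, all linked to the primary cilium, and PSRC1, which binds spindle microtubules. LCA5 had 7.77 CPM in Control, 3.14 with LPS alone, 3.45 after the WT peptide and 3.51 after the mut peptide. PSRC1 was the most abundant of the group, with 57.6, 30.4, 31.0 and 33.1. ARL6 and TTC30B had 157 and 113 counts in Control and 49 and 29 in mut PDZ+LPS. None of the 39 genes of the Hedgehog and primary cilium list was a member, with a list median of -0.18 in LPS/Control.

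Metabolic enzymes and their regulators counted 8 members. PANK1, pantothenate kinase at the start of coenzyme A synthesis, had 21.4 CPM in Control, 10.2 with LPS alone, 10.9 after the WT peptide and 8.23 after the mut peptide. PPP1R3D, which brings protein phosphatase 1 to glycogen, had 8.26, 3.38, 3.75 and 3.05, and PPM1K, the phosphatase that activates branched-chain ketoacid dehydrogenase, had 26.1, 14.0, 14.6 and 13.3. All 3 were lowest with the mutant peptide, but in mut PDZ+LPS/LPS the counting interval held 0 for PPP1R3D and PPM1K. With the trend over length and GC content removed, mut PDZ+LPS/LPS was 0.081 for PANK1, -0.035 for PPP1R3D and 0.28 for PPM1K. DSEL, a dermatan sulfate epimerase-like enzyme, had 1873 counts in Control, 967 with LPS alone, 1032 after the WT peptide and 601 after the mut peptide. SULT1E1, the estrogen sulfotransferase, had 160, 94, 57 and 55 counts, and its 2 peptide libraries were the lowest. CHST10, a carbohydrate sulfotransferase, MBLAC2 and SNPH, which docks mitochondria in axons, had 5.80 to 13.7 CPM in Control.

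Of the 7 other or little characterised proteins, TPRN (taperin, needed for hearing) had 31.8 CPM in Control, 14.3 with LPS alone, 14.4 after the WT peptide and 18.5 after the mut peptide, and FAM46B, a poly(A) polymerase, had 31.1, 17.4, 16.5 and 17.4. FAM217B had 27.03, 11.1, 12.7 and 7.87. GLCCI1, a glucocorticoid-induced transcript, had 8.98, 3.42, 4.18 and 4.37. FAM214B, FAM43A and LRRC75A had 108 to 324 counts in Control. Non-coding and uncharacterised genes were LINC01279, LOC100130744, LOC100506127 and LOC730101, 4 of 117 LINC and LOC symbols with at least 100 counts, with 161 to 375 counts in Control and highest ratios of 0.493 to 0.590.

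Another 4 members have near-identical relatives, so that a counter can split or move reads between copies, and their values are uncertain. NUDT4P1, a copy of NUDT4, had 158 counts in Control, 1 with LPS alone, 0 after the WT peptide and 1 after the mut peptide. Taking the 0 as 3 counts for that library put its level after the WT peptide 49.7-fold under Control. The counting interval, which keeps the 0, reached up to 0.025 times Control. The parent gene NUDT4, which encodes a diphosphoinositol polyphosphate phosphohydrolase, had 609, 679, 579 and 448 counts, and the sum of both was 0.875, 0.799 and 0.738 times Control with LPS alone, the WT peptide and the mut peptide. HNRNPA1P10, a processed copy of the splicing factor gene HNRNPA1, had 8178, 3727, 4451 and 2218 counts beside 39274, 42519, 38489 and 43740 for HNRNPA1. Summed with its parent it was at 0.962, 0.958 and 1.22 times Control, so neither of these sums met the limit of 0.6 in any library.

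FAM72C had 239 counts in Control, 144 with LPS alone, 120 after the WT peptide and 23 after the mut peptide, whereas FAM72D had 0 counts in the first 3 libraries and 114 in mut PDZ+LPS. The sum of the pair was 0.595, 0.532 and 0.723 times Control, and the sum over FAM72A, FAM72B, FAM72C and FAM72D was 0.683, 0.712 and 0.827. FAM45B had 404, 232, 192 and 118 counts beside 164, 168, 181 and 195 for FAM45A, and their sum was 0.695 times Control in all 3 LPS libraries. None of these 4 summed families met the rule.

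**Figure D3:**
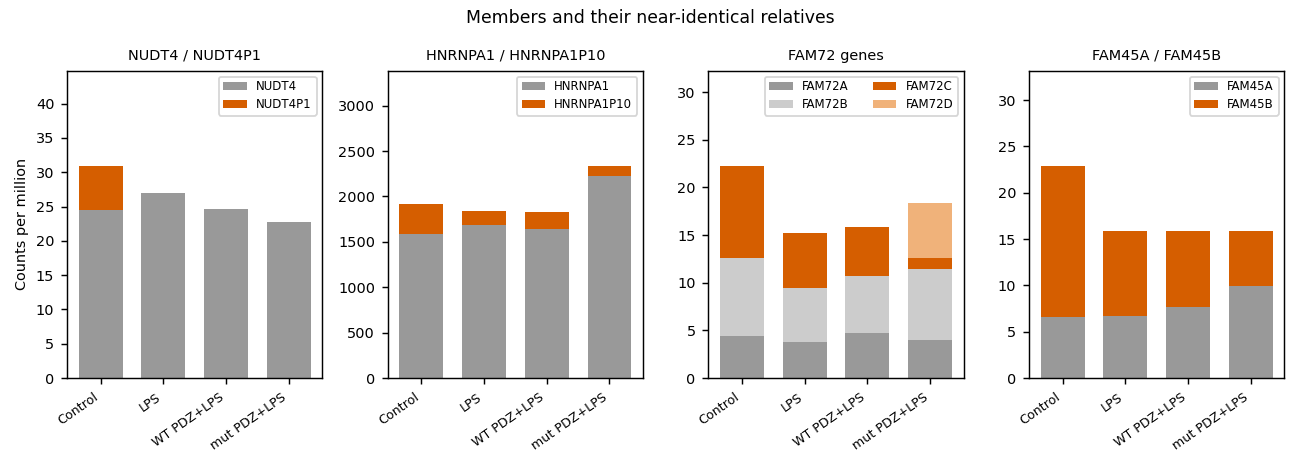
Stacked CPM of 4 members and their near-identical relatives in the 4 libraries, with the members NUDT4P1, HNRNPA1P10, FAM72C and FAM45B in orange, other copies in gray and FAM72D in light orange. NUDT4P1 is seen in Control only at this scale, and FAM72D (114 counts) in mut PDZ+LPS only.

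The rule did not set the comparisons among the 3 LPS libraries directly, but its limit kept high values of each library out. The medians, intervals and counts below therefore come from filtered values. The median log2 fold change of the members in WT PDZ+LPS/LPS was 0.032 (-0.020 to 0.090), with 30 lower and 43 higher, beside 0.0076 over all symbols. In mut PDZ+LPS/LPS it was -0.076 (-0.20 to 0.017), with 44 lower and 29 higher, beside -0.012. Between the peptides, mut PDZ+LPS/WT PDZ+LPS, it was -0.088 (-0.17 to 0.016), also with 44 lower and 29 higher, beside -0.010. These comparisons share libraries and are not independent. Without mut PDZ+LPS in the rule, the medians of both comparisons with mut PDZ+LPS were positive, as given in the last section, so their sign depends on the rule. With the trend over length and GC content removed, the median in mut PDZ+LPS/LPS was -0.012 over the 69 members with a length, with 35 lower and 34 higher. The lowest of the 3 ratios to Control was in LPS for 22 members, in WT PDZ+LPS for 16 and in mut PDZ+LPS for 35, or 47.9%. Over all symbols the mut peptide library was lowest in 46.5%, LPS alone in 26.3% and the WT peptide in 27.2%.

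Set against LPS alone, the WT peptide gave 1 member lower by 1.5-fold or more, SULT1E1 at -0.62 (-1.12 to -0.13), where 0.184% of all symbols were. The 1 member called higher was NUDT4P1, whose values rest on 0 and 1 counts and are not read, beside 0.193% of all symbols. The counting interval of WT PDZ+LPS/LPS held 0 in 66 members, lay under 0 in 2, beside 10.7% of all symbols, and above 0 in 5, beside 13.1%. Fewer counts give wider intervals, and members had a median of 253 counts in Control against 1079, so these shares cannot be compared directly. TET1, at 0.49 (0.06 to 0.93), and HNRNPA1P10, MKX, ZNF652 and DSEL were the 5 above. These members were named after their values were seen.

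In mut PDZ+LPS/LPS, 5 members were at least 1.5-fold lower, beside 8.01% of all symbols, and 0 were higher, beside 5.19%. The rule held every member at or under 0.6 times Control in mut PDZ+LPS, so few could be called higher. The shares called higher therefore cannot be compared directly. The 5 were FAM72C at -2.29 (-2.995 to -1.65), EDARADD at -1.71 (-2.57 to -0.93), PCDH9 at -0.86 (-1.47 to -0.27), FAM45B at -0.62 (-0.95 to -0.30) and TTC30B at -0.60 (-1.30 to 0.08). They were 6.85% of the 73, a share near that of all symbols. With the trend removed, 4 of 69 members were lower, FAM72C, EDARADD, HNRNPA1P10 and SULT1E1, beside 2.15% of 10779 symbols. GLCCI1 and ZFP14 were then higher, beside 2.56%. EDARADD kept its value, at -1.69 after removal of the trend, while PCDH9, whose longest transcript has 28227 nt, was at -0.18.

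In mut PDZ+LPS/WT PDZ+LPS, 9 members were at least 1.5-fold lower, beside 8.97% of all symbols. Leaving aside NUDT4P1 with 0 and 1 counts, they were FAM72C, EDARADD, TET1, PCDH9, HNRNPA1P10, FAM217B, PCDH18 and KBTBD7, and TET1 was at -0.97 (-1.51 to -0.45). DBP was the 1 member higher, at 0.68 (0.11 to 1.27), or 0.23 with the trend removed, beside 5.35% of all symbols. The counting interval lay under 0 in 17 members and above 0 in 3, beside 36.4% and 34.1% of all symbols, shares that the lower counts of members again keep from a direct comparison. With the trend over length and GC content removed, NUDT4P1, FAM72C (-2.21), EDARADD (-1.24) and HNRNPA1P10 (-1.14) were at least 1.5-fold lower, 4 of 69 members beside 2.33% of 10779 symbols, and 0 were higher, beside 2.91%. PCDH9 was then at -0.074, PCDH18 at -0.30, KBTBD7 at -0.35, FAM217B at -0.41 and TET1 at -0.44. The limit of the rule again kept high mut PDZ+LPS values out, so the shares called higher in this comparison cannot be compared directly either.

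**Figure D4:**
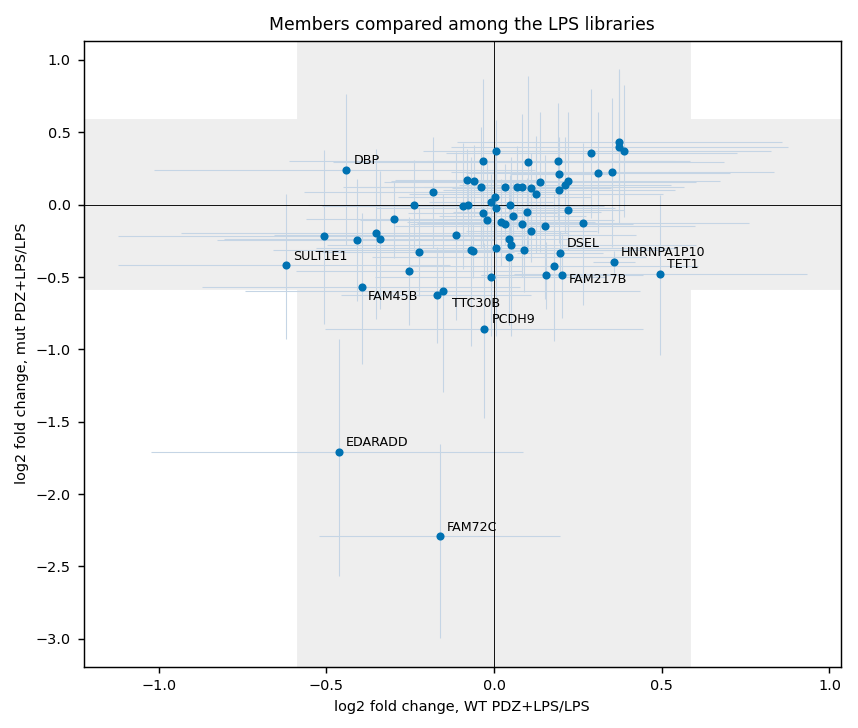
Log2 fold changes of 72 members (NUDT4P1 is left out) in WT PDZ+LPS/LPS (horizontal) and mut PDZ+LPS/LPS (vertical), which share the LPS library. Lines are 95% counting intervals, gray bands mark less than 1.5-fold on either axis, and FAM72C (-2.29) and EDARADD (-1.71) lie farthest down.

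Members had fewer coding exons than other symbols, a measure that the rule did not use and that is given as a description. In the longest protein-coding transcript of each gene in GENCODE 29, found for 68 members, the coding sequence lay in a single exon in 13 (19.1%, exact interval 10.6% to 30.5%), against 494 of 10576 symbols (4.67%). Among these 13 were DSEL, FAM217B, FAM43A, FZD2, KBTBD7, NUDT4P1, PCDH9, PPP1R3D, S1PR5, SPRY1, SPRY2 and TTC30B. The median number of coding exons was 4 in members and 9 in all symbols. Seen the other way, 2.63% of genes with 1 coding exon were members, 1.31% of those with 2 to 4 and 0.358% of those with 5 or more. Members with under 250 counts in Control had 1 coding exon in 9 of 35 (25.7%), against 9.21% of all such symbols. The other members had it in 4 of 33 (12.1%), against 4.09%. Both shares were above those of all symbols but rest on few genes, and no interval was taken at either level. The 13 include NUDT4P1, whose counts are uncertain because of its parent gene. The intervals treat genes as independent, and whether the structure bears on the change was not tested.

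The 3′ untranslated regions of members had a median of 2172 nt, against 1388 nt over all symbols, and the whole transcripts 4017 nt against 3535 nt. The letters ATTTA are the core of AU-rich elements, which are known to shorten the life of messages. They were in the 3′ untranslated region of 82.4% of the members (exact interval 71.2% to 90.5%) and 74.3% of all symbols with one. The longer TATTTAT was in 34 of 68 (exact interval 37.6% to 62.4%) against 36.6%. Longer regions hold more matches, and per 1000 nt the median number of ATTTA was 2.25 in members and 1.75 in all. The GC content of the transcript had a median of 44.7% in members and 48.1% in all symbols.

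**Figure D5:**
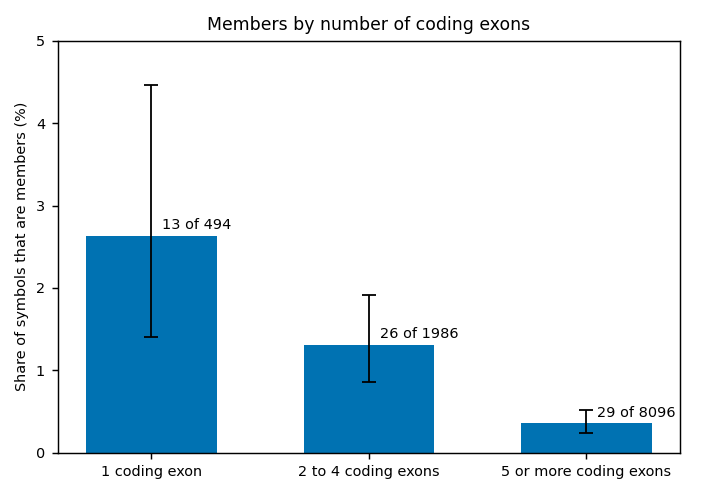
Share of symbols with at least 100 counts in Control that are members, by the number of coding exons of the longest protein-coding transcript, with exact 95% intervals over genes. The share is 2.63% (13 of 494) with 1 coding exon, 1.31% with 2 to 4 and 0.358% with 5 or more.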

How the data were processed

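Poly(A) RNA of 4 BEAS-2B libraries, 1 per condition, was prepared with a directional kit and sequenced in pairs. The authors trimmed the reads and mapped them with TopHat to hg19, per the submitters' processing notes, and deposited for each symbol a raw count of reads that was not normalized. The counting tool, the annotation and the strand setting are not given in the sources used here, so overlapping and antisense genes cannot be told apart. The methods of the study name FPKM and EdgeR, but the deposited values are whole counts with a different total in each library.

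Counts were divided by the library total and given as CPM. A symbol was a member with at least 100 counts in Control and a ratio of at most 0.6 in all 3 LPS libraries. Symbols with a hyphen (3 otherwise within the limits) were left out. A count of 0 was taken as 3 counts. With 1 library per condition no test was run. A fold of 1.5 was used among the LPS libraries.

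The members and the gene lists were chosen with earlier results of these data known. There were 38 lists, 15 with a member, and those without one that are not named in the text had 0 members. The genes named were the 10 members lowest in their highest ratio, the 10 highest in Control, the members of each list (at most 4), those 3 highest and 3 lowest in mut PDZ+LPS/WT PDZ+LPS and in WT PDZ+LPS/LPS among members with at least 100 counts in each LPS library, and the 3 on each side of the limit. Other members are named by role, except 1 that is counted in every total but is not reported here by name.

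Lengths, exons and 3′ untranslated regions came from the longest protein-coding transcript in GENCODE 29, or from the longest transcript where there was none (69 of 73 members and 10779 of 10894 symbols matched). Promoters came from RefSeq (GRCh38.p14), which is another build than that of the mapping, so no position of a read is given. The trend over length and then GC content was removed by lowess (span 0.3). The steps were tested on simulated data. Alternatives were TMM and upper-quartile scaling (edgeR 4.0.16), median-of-ratios scaling (DESeq2 1.42.0, R 4.3.3), other limits, minimum counts and pseudocounts, and symbols with a hyphen. The rule without mut PDZ+LPS and the limit on the upper interval were added after seeing the data. The scripts ran in Python 3.11.15, with matplotlib 3.10.9 for figures and statsmodels 0.14.6 for lowess, next to scipy 1.17.1, pandas 2.3.3 and numpy 2.4.6.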

Additional observations from a re-analysis of the deposited data

Results flagged for a closer look

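HNRNPA1P10 and DSEL lay on opposite sides of LPS with the 2 peptides, each beyond its counting interval. HNRNPA1P10 was at -0.39 on the log2 scale in mut PDZ+LPS/LPS and at 0.36 in WT PDZ+LPS/LPS, and DSEL was at -0.33 and 0.20. With 1 library per condition, the difference between the peptides was not tested. HNRNPA1P10 shares sequence with HNRNPA1, which was at 1.40 times Control in mut PDZ+LPS. With the trend over length and GC content removed, DSEL was at 0.16 in mut PDZ+LPS/LPS, on the same side as WT PDZ+LPS, and HNRNPA1P10 was at -0.77.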

How the results depend on the processing

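The number of members (73) was 39 under TMM, 32 under median-of-ratios and 42 under upper-quartile scaling, all of them among the 73, and 32 members met the limit under all 3. It was 21 at a limit of 0.5, 253 at 0.7, 9 with 5 CPM added, 115 without mut PDZ+LPS in the rule and 15 with the upper interval at most 0.6. With the trend over length and GC content removed it was 69, of which 55 were shared. A minimum of 50 or 200 counts gave 109 or 50, and keeping hyphens gave 76.

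The median in LPS/Control was -1.14 under median-of-ratios scaling, -1.31 at 0.5, -0.78 at 0.7, -1.13 with 5 CPM added and -1.29 with the upper interval. In WT PDZ+LPS/Control it was -1.17 at 0.5, -0.71 at 0.7 and -1.17 with the upper interval. In mut PDZ+LPS/Control it was -1.44 at 0.5, -0.89 at 0.7, -1.31 with 5 CPM added, -0.90 without mut PDZ+LPS in the rule and -1.46 with the upper interval. In WT PDZ+LPS/LPS it was 0.14 at 0.5 and 0.14 with the upper interval. Without mut PDZ+LPS in the rule the median for mut PDZ+LPS/LPS was 0.16, and that between the peptides (mut PDZ+LPS/WT PDZ+LPS) was 0.093. A changed limit or rule changes the members, and for the other settings the cause was not tested. No paired analysis was possible because each condition had 1 library, and no replicate could be left out. The counting interval went above 0.6 in at least 1 library for 58 of the 73 members.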
